A study of Mus musculus with 14 samples.

Results

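The transcriptome of C2C12 cells depleted of Klf5 was compared with that of control cells on day 2 of differentiation, when the myoblasts were forming myotubes. The comparison covers the 11591 of the 24016 transcripts in the deposited table whose mean FPKM value over the 8 RNA libraries was at least 10. 2 of the 14 samples of the study carry it, 1 library from cells given siRNA against Klf5 (siKlf5) and 1 from cells given control siRNA (siCtrl).

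C2C12 is a mouse myoblast line that leaves the cell cycle and fuses into myotubes when serum is lowered. The cells received a pool of siRNAs against Klf5, or control siRNA, by lipid transfection, were kept in growth medium for a day and were then changed to differentiation medium with horse serum, and RNA was taken on days 0, 1, 2 and 3 of differentiation. The 8 RNA libraries, 1 per siRNA and day, share this line and transfection procedure, and the remaining 6 samples are ChIP-seq libraries that were not analysed here. Because each condition is 1 library, no value below has a replicate error, no test could be run, and a difference between the day 2 libraries cannot be told apart from a difference between 2 cultures. All cells of a dish were sequenced together, so fewer cells of a kind and less RNA per cell cannot be told apart either.

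Klf5 is a zinc finger transcription factor of the Krüppel-like family, whose members bind CACCC and GC-rich boxes in promoters and enhancers. Differentiation of myoblasts is driven by MyoD and myogenin, which act with Mef2 factors on the genes of the sarcomere, the calcium release apparatus and the muscle membrane. As myotubes mature, embryonic and cardiac isoforms of the contractile proteins are joined by the isoforms of slow and fast adult fibres.

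Ratios are log2 of siKlf5 over siCtrl after 0.1 was added to both FPKM values, so that negative ratios mean a lower level after knockdown, and a transcript was counted as lower or higher when it differed by more than 1.5-fold. The reads behind each value were recovered from the table, 20301506 in the siCtrl and 11808641 in the siKlf5 library of day 2, a depth ratio of 1.72, and the other 6 libraries held 7850497 to 12366627. Each ratio has a 95% exact (Clopper-Pearson) interval that treats 6 reads as 1 unit, since reads came in clumps. In the siKlf5 library 489 transcripts had exactly 6 reads and 66 had exactly 5, and in the siCtrl library these numbers were 294 and 104. The intervals cover counting error only. Among the members nearest to the filter, Fetub lay just inside at a mean FPKM value of 10.0001 and Zfp429 just outside at 9.97.

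The target of the siRNA was checked first. Klf5 (NM_009769, chr14:99697910-99712628 of mm9, plus strand) was at an FPKM value of 614 in siCtrl and 192 in siKlf5 cells on day 2, from 3548 and 642 reads. The knockdown library thus retained 31.3% of the control level, a log2 ratio of -1.68 (95% counting interval -1.995 to -1.385). Klf5 was rising in control cells at this time, from 381 on day 1 to 933 on day 3, whereas in knockdown cells it was between 160 and 211 on days 1 to 3.

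Muscle markers were high in both libraries. Myogenin, the factor that starts terminal differentiation, was at 2061 in siCtrl and 1740 in siKlf5 cells, and embryonic myosin heavy chain (Myh3) was at 2107 and 2514. Markers of other cell types differed in level, from low for endothelial and blood cells to high for smooth muscle. The endothelial markers Cdh5, Kdr, Pecam1 and Tek summed to 3.31 in siCtrl and 5.36 in siKlf5 cells, with Pecam1 and Kdr at 0 in both. The 5 macrophage and blood cell markers summed to 10.8 and 8.34. Of the 8 adipocyte markers Adipoq, Lep and Plin1 were at 0 in both libraries, and the sums of 70.7 and 74.5 came mostly from Pparg and Cebpa. Of the 4 epithelial markers Epcam and Krt18 were at 0 in both libraries, and the sums of 26.9 and 4.27 came mostly from Cdh1, described with the largest reductions. The 6 smooth muscle markers summed to 1870 and 2310, of which Acta2 was at 1151 and 1552. The 8 bone and cartilage markers summed to 260.5 and 236.8, mostly from Runx2 and Sox9.

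Most transcripts were close to equal. The median ratio of the 11591 members was -0.03, and 10326 of them (89.1%) were within 1.5-fold. On day 2, 869 members (7.5%) were lower and 396 (3.42%) were higher in Klf5 knockdown cells by more than 1.5-fold. Once ratios were centred within 50 groups of like mean level the counts were 616 lower and 547 higher. Such centring sets each group's median to 0, and under scalings that shift all members alike the counts were 813 and 423 (upper quartile) and 785 and 443 (median). The intervals of 516 of the 869 lower members and of 152 of the 396 higher members left out 0. The median of the reads in the richer library was 392 for lower members, 119 for higher members and 1016 for all members. Of the lower members 47 were listed at 0 in the siKlf5 library, 42 of them shorter than 200 exon bases, and of the higher members 9 were listed at 0 in the siCtrl library, all shorter than 200 bases. The 58 small nucleolar RNAs among the members showed how little such values carry, since 26 were lower and 21 higher on a median of 6 reads.

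**Figure D1:**
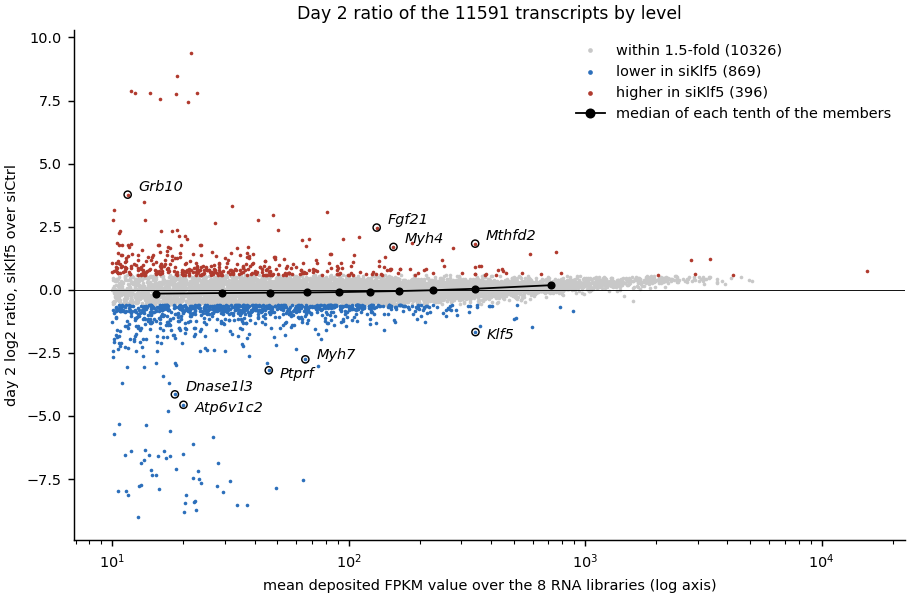
Day 2 log2 ratio of siKlf5 over siCtrl (y axis) against the mean deposited FPKM value over the 8 RNA libraries (x axis, log scale), with 1 point per transcript, blue for the 869 lower and red for the 396 higher by more than 1.5-fold. The black line joins the medians of 10 equal groups of the members and climbs from -0.15 to 0.18, and the points beyond -5 and 5 are transcripts listed at 0 in 1 library.

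The day 2 ratio moved with the level and the length of a transcript. The members were put into 10 equal groups by mean FPKM, and the median was -0.15 in the lowest group and 0.18 in the highest. In that highest group the ratios on days 0, 1 and 3 had medians of 0.02, -0.05 and 0.03. The siCtrl day 2 library stood apart there, since this group was at a median of -0.17 against its own days 1 and 3, and the siKlf5 library at 0.00. By exon length the median ratio was 0.10 in the shortest of 10 equal groups and -0.28 in the longest, whose median length was 7259 bases and in which 162 members were lower and 8 higher. On day 3 the longest group was at 0.11. For some results below the ratio centred within the 50 groups of like mean level is given too, and all other ratios are not centred. What part level and length have in the differences between conditions was not tested.

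3 RNAs without a poly(A) tail, looked up after the values were seen, were higher in the siKlf5 library of day 2. The small nucleolar RNAs had a median ratio of -0.39, but on a median of 6 reads in the richer library, with 26 lower and 21 higher. The ribosomal RNA precursor Rn45s was at 7680 in siCtrl and 12801 in siKlf5 cells, a ratio of 0.74 (0.70 to 0.76). Rmrp, the RNA of a mitochondrial RNA processing enzyme, was at 266 and 745 (1.49, interval 0.89 to 2.08), and Rpph1, the RNA of ribonuclease P, was at 191 and 510 (1.41, interval 0.76 to 2.07). The ratios of Rn45s, Rmrp and Rpph1 were 0.38, -0.11 and 0.02 on day 0, then -0.28, -0.08 and 0.07 on day 1, and 0.65, 0.85 and 1.18 on day 3.

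**Figure D2:**
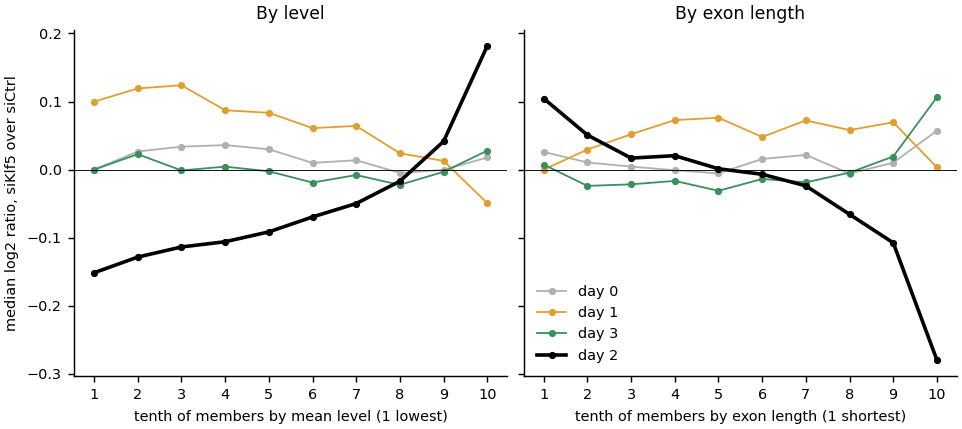
Median log2 ratio of siKlf5 over siCtrl (y axis) in 10 equal groups of the members by mean FPKM level (left, x axis) and by exon length (right, x axis), with 1 line per day. The day 2 line, in black, runs from -0.15 to 0.18 by level and from 0.10 to -0.28 by length, while the lines of the other days are flatter.

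The genes with the largest changes were set beside their promoters because Klf5 recognizes CACCC. The 250 bases upstream of the start given in the table were read from mm9, and CACCC (its reverse complement is GGGTG) was searched on both strands. None of the motifs searched contains another. Shown 5′ to 3′ along each gene's own strand, with CACCC and GGGTG in capitals, are the windows of Klf5 itself (chr14:99697660-99697909, plus strand), of the 3 transcripts with the largest reductions, Atp6v1c2 (chr12:17331537-17331786, minus strand), Dnase1l3 (chr14:8826697-8826946, minus strand) and Als2cl (chr9:110782428-110782677, plus strand), of slow myosin heavy chain Myh7 (chr14:55613387-55613636, minus strand), and of the 2 largest increases, Grb10 (chr11:11927975-11928224, minus strand) and Fgf21 (chr7:52870861-52871110, minus strand). The starts of Dnase1l3 and Myh7 are not starts in the GENCODE annotation of this build.
Klf5: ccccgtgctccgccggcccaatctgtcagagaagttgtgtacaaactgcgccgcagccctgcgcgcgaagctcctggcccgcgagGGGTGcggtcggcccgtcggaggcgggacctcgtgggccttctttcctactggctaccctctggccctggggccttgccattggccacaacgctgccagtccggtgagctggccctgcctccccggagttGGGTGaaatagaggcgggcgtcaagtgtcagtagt
Atp6v1c2: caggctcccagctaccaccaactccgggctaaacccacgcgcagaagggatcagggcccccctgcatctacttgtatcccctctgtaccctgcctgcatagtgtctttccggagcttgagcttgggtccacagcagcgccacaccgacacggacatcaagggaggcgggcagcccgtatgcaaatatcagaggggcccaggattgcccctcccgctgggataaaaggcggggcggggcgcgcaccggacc
Dnase1l3: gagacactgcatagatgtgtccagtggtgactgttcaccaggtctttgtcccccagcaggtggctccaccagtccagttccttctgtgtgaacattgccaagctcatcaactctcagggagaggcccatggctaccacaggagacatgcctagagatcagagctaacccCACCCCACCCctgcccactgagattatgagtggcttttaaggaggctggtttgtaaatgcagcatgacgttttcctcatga
Als2cl: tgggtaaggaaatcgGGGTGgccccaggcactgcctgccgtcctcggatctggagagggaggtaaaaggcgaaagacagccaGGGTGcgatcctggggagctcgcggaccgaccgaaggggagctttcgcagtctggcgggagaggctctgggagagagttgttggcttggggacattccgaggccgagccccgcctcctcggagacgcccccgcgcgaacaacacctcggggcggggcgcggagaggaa
Myh7: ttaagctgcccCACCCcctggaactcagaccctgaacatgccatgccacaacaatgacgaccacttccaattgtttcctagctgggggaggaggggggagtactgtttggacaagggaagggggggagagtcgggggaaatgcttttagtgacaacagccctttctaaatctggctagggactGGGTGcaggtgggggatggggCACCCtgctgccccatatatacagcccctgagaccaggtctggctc
Grb10: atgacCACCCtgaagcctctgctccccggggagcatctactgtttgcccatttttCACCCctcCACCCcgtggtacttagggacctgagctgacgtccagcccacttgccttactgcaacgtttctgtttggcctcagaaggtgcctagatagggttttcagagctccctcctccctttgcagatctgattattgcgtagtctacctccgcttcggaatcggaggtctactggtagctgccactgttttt
Fgf21: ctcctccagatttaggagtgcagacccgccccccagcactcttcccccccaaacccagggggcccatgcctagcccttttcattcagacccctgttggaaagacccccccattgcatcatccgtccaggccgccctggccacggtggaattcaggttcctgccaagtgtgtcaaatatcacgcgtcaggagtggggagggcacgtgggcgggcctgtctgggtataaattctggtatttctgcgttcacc
These 7 windows held between 0 and 3 copies of CACCC. Klf5, Dnase1l3 and Als2cl held 2 each and Myh7 and Grb10 held 3 each, whereas Atp6v1c2, with the largest reduction, and Fgf21, with the second largest increase, held 0. Over all members the motif was in 55.8% of the windows. It was in 58.7% of the windows of the lower and 50.5% of the windows of the higher members. Among all members with at least 120 reads and 200 exon bases it was in 55.9%. With an interval that also left out 0 it was in 59.7% of the lower and 54.8% of the higher. The GC-rich letters CCGCCC were in 48.9% of the windows of lower, 50.5% of higher and 61.0% of all members. Among members with at least 120 reads and 200 exon bases they were in 57.2% of the windows of the lower and 62.3% of the higher with an interval that left out 0, and in 62.9% of all. CAGCTG, an E-box of the kind that MyoD and myogenin bind, was in 14.6% of the windows of lower, 13.9% of higher and 11.8% of all members. In the same stricter sets it was in 13.6% of lower, 17.1% of higher and 11.7% of all. The median GC content was 58.4% in the windows of the lower, 57.2% in those of the higher and 60.4% in those of all members. In the stricter sets it was 60.8% for lower, 60% for higher and 60.8% for all. A match is a run of letters and not a bound site, and enhancers lie outside these windows.

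The 15 largest reductions, among members with at least 200 exon bases and 120 reads in the richer day 2 library, are given first. In control cells 14 of the 15 were at least 2-fold higher on day 3 than on day 0, as were 11 of the 15 largest increases and 1247 of the 11591 members. The 15 reductions were chosen with the siCtrl day 2 level, and all 15 reached the 120 reads in that library. Atp6v1c2, which encodes a C subunit of the vacuolar proton pump, was at 48.2 in siCtrl and 1.95 in siKlf5 cells, 4.05% of the control level and a ratio of -4.56. Its siKlf5 value rests on 6 reads, so that the interval runs from -9.97 to -2.08. Dnase1l3, which encodes a secreted endonuclease, was at 70.7 and 3.90 (-4.14, interval -5.90 to -2.89), from 876 and 28 reads. Als2cl, an alsin-like protein, was at 43.4 and 3.25 (-3.70, interval -5.33 to -2.52). All 3 were at or below 6.83 in the siCtrl libraries of days 0 and 1.

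Ptprf, the receptor tyrosine phosphatase LAR, had the most reads of the 15, with 3100 in siCtrl and 195 in siKlf5 cells. Its level was 121 in siCtrl and 13.2 in siKlf5 cells, a ratio of -3.19 (-3.77 to -2.70), and in siKlf5 cells it lay between 9.46 and 14.7 on all 4 days while in siCtrl cells it went from 21.3 on day 0 to 147 on day 3. Cdh1, which encodes E-cadherin, was at 24.9 and 3.98 (-2.62, interval -4.21 to -1.42). It had reached 38.1 in siCtrl and 14.9 in siKlf5 cells on day 3. The chloride channel gene Clic3 (102 and 13.7, ratio -2.89) was reduced as well, as was the adaptor of F-actin and tyrosine phosphatases Pstpip1 (53.4 and 10.1, ratio -2.39).

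Myh7, the slow myosin heavy chain, was at 106 in siCtrl and 15.7 in siKlf5 cells, 14.7% of the control level and a ratio of -2.76 (-3.36 to -2.24) from 2148 and 183 reads. It was lower in the siKlf5 library on all 4 days, with siCtrl values of 7.86, 20.6, 106 and 311 and siKlf5 values of 2.88, 5.11, 15.7 and 55.5 on days 0 to 3. The noncoding D830015G02Rik (57.5 and 10.6, ratio -2.43) lies on the opposite strand and shares 3662 bases of chromosome 14 with Myh7, and reads of both strands were counted, so that the values of both genes cannot be told apart fully. The 15 also held Jakmip1 (33.4 and 3.04, ratio -3.42), Tekt5 (41.8 and 4.96, ratio -3.05), Fam107a (21.5 and 3.28, ratio -2.68), Tmem252 (40.2 and 7.33, ratio -2.44) and Art3 (24.95 and 4.64, ratio -2.40). Art3, an ADP-ribosyltransferase, is the one of the 15 that went down in control cells, from 58.7 on day 0 to 18.2 on day 3.

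**Figure D3:**
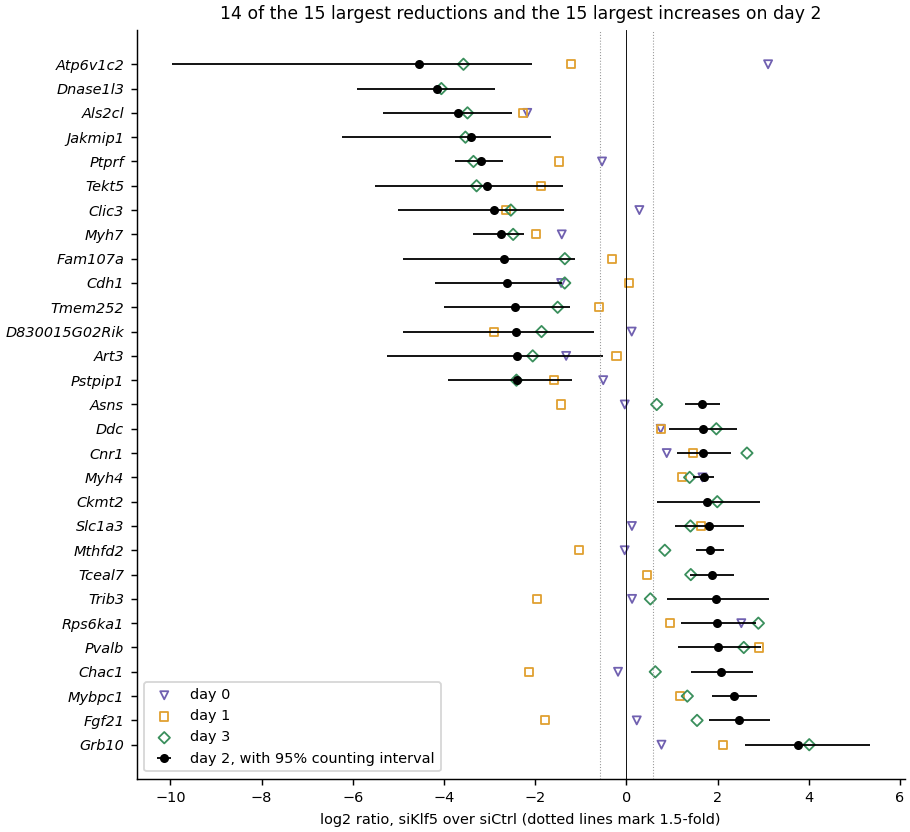
Log2 ratio of siKlf5 over siCtrl (x axis) of 14 of the 15 largest reductions and the 15 largest increases on day 2, 1 gene per line, with black points and bars for the day 2 ratio and its 95% counting interval and open markers for the other days where both libraries were above 0. The day 3 diamonds of all genes drawn lie on the day 2 side of 0, and the day 1 squares of Asns, Mthfd2, Trib3, Chac1, Fgf21 and, at 0.07, Cdh1 lie on the other.

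The largest increase was of Grb10, an adaptor that dampens insulin and Igf receptor signalling and is imprinted. It stayed between 0.857 and 2.57 in the siCtrl libraries of days 0 to 3 and went up in the siKlf5 libraries, which held 1.53, 8.85, 32.1 and 42.9. Its day 2 ratio was 3.77 (2.60 to 5.34) from 36 and 296 reads. Ddc, which makes dopamine and serotonin from their precursors, lies 40090 bases from Grb10 on chromosome 11 and on the same strand, and was at 23.0 in siCtrl and 73.8 in siKlf5 cells (1.67, interval 0.94 to 2.44). Rps6ka1, a kinase downstream of Erk, was at 11.3 and 45.5 (2.00). Slc1a3, a glutamate transporter, was at 10.1 and 35.4 (1.80), and Cnr1, the cannabinoid receptor of neurons, at 11.9 and 38.5 (1.69). Tceal7 was at 103 and 379 (1.87).

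Contractile and calcium-handling genes were among the increases. Myh4, the myosin heavy chain of the fastest fibres, was at 71.2 in siCtrl and 231 in siKlf5 cells (1.70, interval 1.46 to 1.93), and it was higher in the siKlf5 library on each of the 4 days. Pvalb, the calcium buffer of fast fibres, was at 32.9 and 133 (2.02, interval 1.14 to 2.95). The increases also held Mybpc1, a myosin-binding protein named for slow fibres, at 21.8 and 112 (2.36, interval 1.87 to 2.86), and Ckmt2, the sarcomeric mitochondrial creatine kinase, at 13.9 and 47.5 (1.76). The increases thus held genes named for both fibre types.

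4 of the 15 increases, Chac1, Trib3, Mthfd2 and Asns, are on the endoplasmic reticulum and amino acid stress list. Fgf21, a hormone that muscle secretes under mitochondrial and amino acid stress, was at 48.7 in siCtrl and 269 in siKlf5 cells (2.47, interval 1.81 to 3.16). Chac1, which degrades glutathione, was at 30.5 and 129 (2.08). Trib3, an Atf4-induced pseudokinase, was at 9.75 and 38.2 (1.96). Mthfd2, of mitochondrial folate metabolism, was at 114 and 407 (1.83), and Asns, which makes asparagine, at 80.6 and 256 (1.67). On day 1 the same 5 genes were lower in the siKlf5 library, at ratios of -1.79 for Fgf21, -2.13 for Chac1, -1.96 for Trib3, -1.04 for Mthfd2 and -1.43 for Asns.

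**Figure D4:**
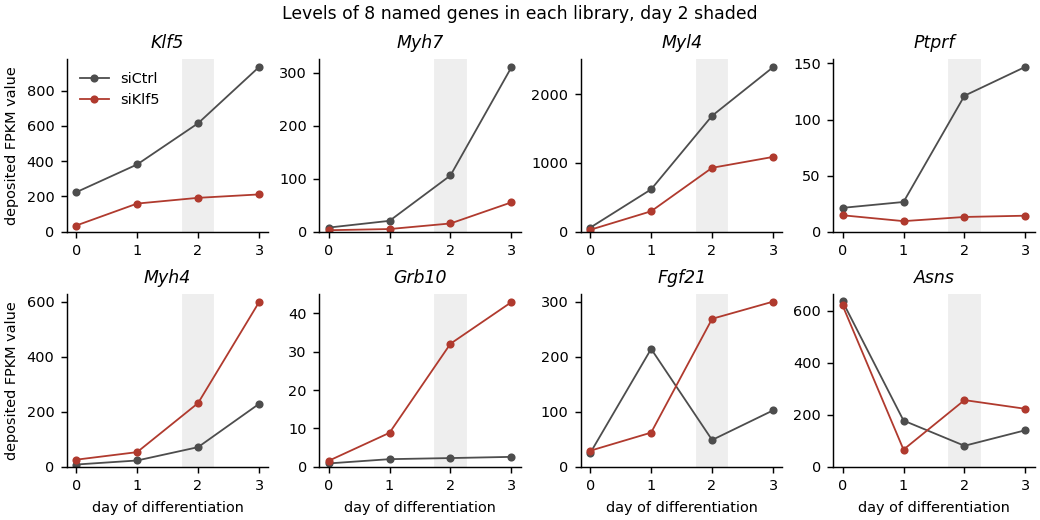
Deposited FPKM value (y axis, from 0) of 8 named genes on days 0 to 3 (x axis) in siCtrl (grey) and siKlf5 (red) cells, 1 library per point and day 2 shaded. Myh7, Myl4 and Ptprf were higher in siCtrl cells on all 4 days, Myh4 and Grb10 in siKlf5 cells, and the lines of Fgf21 and Asns cross between days 1 and 2.

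The gene lists of muscle were described next, by role. Of the 18 myogenic transcription factors among the members, 1 was lower by more than 1.5-fold and 0 were higher, beside 7.5% and 3.42% of all members, and their median ratio was 0.02. The 1 was Tead4, a factor that MyoD induces, at 370 in siCtrl and 223 in siKlf5 cells (-0.73, interval -0.97 to -0.51). Myod1 itself was at 479 and 533 (0.16, interval -0.06 to 0.35). Myog, at 2061 and 1740, had a ratio of -0.24 (-0.37 to -0.13), and -0.60 once centred on transcripts of like level. Centring by level and length gave -0.44. Mef2c was at 163 and 116 (-0.49), while Smarcd3, the chromatin partner of MyoD, was at 340 and 500 (0.55). Pax7, a marker of satellite cells, was near the filter at 11.6 and 12.8.

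The sarcomere list had genes on both sides of 0. Of its 54 members 8 (14.8%) were lower and 4 (7.41%) higher, beside 7.5% and 3.42% of all members. The median was -0.02, or -0.12 after centring by level and -0.05 after centring by level and length. Below Myh7 the lower members included Mybpc2 (56.5 and 24.3, ratio -1.21), Myoz2 (376 and 166, ratio -1.18), Myl4 (1685 and 929, ratio -0.86), Csrp3 (186 and 104, ratio -0.85), Trim63 (323 and 191, ratio -0.76) and Klhl40 (182 and 119, ratio -0.62). Myoz2 and Csrp3 belong to the Z-disc of slow and cardiac muscle, and Myl4 is the light chain of embryonic and atrial muscle. Myl4 was lower in the siKlf5 library on all 4 days, at ratios of -1.07, -1.05, -0.86 and -1.14. The higher members were Mybpc1, Myh4, Myoz1 (11.3 and 28.4, ratio 1.32, interval -0.09 to 2.80) and Actn2 (385 and 588, ratio 0.61).

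The myosin heavy chains went separate ways. Myh1, of fast fibres, was at 772 in siCtrl and 576 in siKlf5 cells (-0.42), Myh2 at 72.8 and 63.0 (-0.21, interval -0.54 to 0.10), perinatal Myh8 at 265 and 264 (-0.01), and embryonic Myh3 at 2107 and 2514 (0.25, -0.10 after centring by level and 0.20 after centring by level and length). The slow and fast troponins were all within 1.5-fold, with slow Tnnt1, Tnni1 and Tnnc1 at ratios of 0.29, 0.28 and 0.35 and fast Tnnt3, Tnni2 and Tnnc2 at 0.40, 0.23 and 0.53, and after centring their ratios lay between -0.08 and 0.18. Mybph, a myosin-binding protein, and Myom2, of the M-band, were lower but within 1.5-fold. Mybph was at 2619 and 1921 (-0.45, interval -0.56 to -0.35) and Myom2 at 928 and 656 (-0.50, interval -0.61 to -0.41). Centring by level took them to -0.80 and -0.60, and centring by level and length to -0.60 and -0.56. Myl2, the slow light chain partner of Myh7, was below the filter and at 27.2 in siCtrl and 6.60 in siKlf5 cells.

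Of the 28 members for fusion and the muscle membrane, 5 (17.9%) were lower and 0 higher, beside 7.5% and 3.42% of all members. The median was -0.09, or -0.14 after centring by level and -0.10 after centring by level and length. The 5 were Cav3, the caveolin of muscle (217 and 95.9, ratio -1.18, interval -1.76 to -0.65), the sarcoglycan Sgcd (39.2 and 18.5, ratio -1.08, interval -2.40 to 0.05), dysferlin (Dysf, 198 and 124, ratio -0.68), utrophin (Utrn, 169 and 109, ratio -0.64) and Jam2 (293 and 193, ratio -0.60). Their ratios are not centred by level or length, and those of Dysf, Utrn and Jam2 were close to the 1.5-fold limit. Cav3 and Sgcd were also lower by more than 1.5-fold on days 1 and 3, whereas Dysf and Utrn were not. Itga7 (1965 and 2616, ratio 0.41) and Bin1 (1843 and 2515, ratio 0.45) had the highest ratios, which centring by level took to 0.06 and 0.09.

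Of the 21 genes of excitation-contraction coupling, 3 (14.3%) were lower and 1, Pvalb, was higher, beside 7.5% and 3.42% of all members. The median was -0.05, or -0.08 after centring by level and -0.06 after centring by level and length. The sodium channel of muscle, Scn4a, was at 186 in siCtrl and 60.9 in siKlf5 cells (-1.61, interval -1.90 to -1.35) from 4116 and 778 reads. The calcium store protein Casq1 was at 486 and 240 (-1.02, interval -1.30 to -0.76). The dihydropyridine receptor subunit Cacna1s was at 318 and 205 (-0.63). In the list of the acetylcholine receptor and synapse 1 of 11 (9.09%) was lower and 0 were higher, beside the same shares of all members. The 1 was the neuregulin receptor Erbb3 at 502 and 263 (-0.93, interval -1.12 to -0.76). The receptor subunits Chrna1 (1022 and 1387, ratio 0.44) and Chrng (1201 and 1729, ratio 0.53) were on the other side of 0, in ratios not centred by level.

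**Figure D5:**
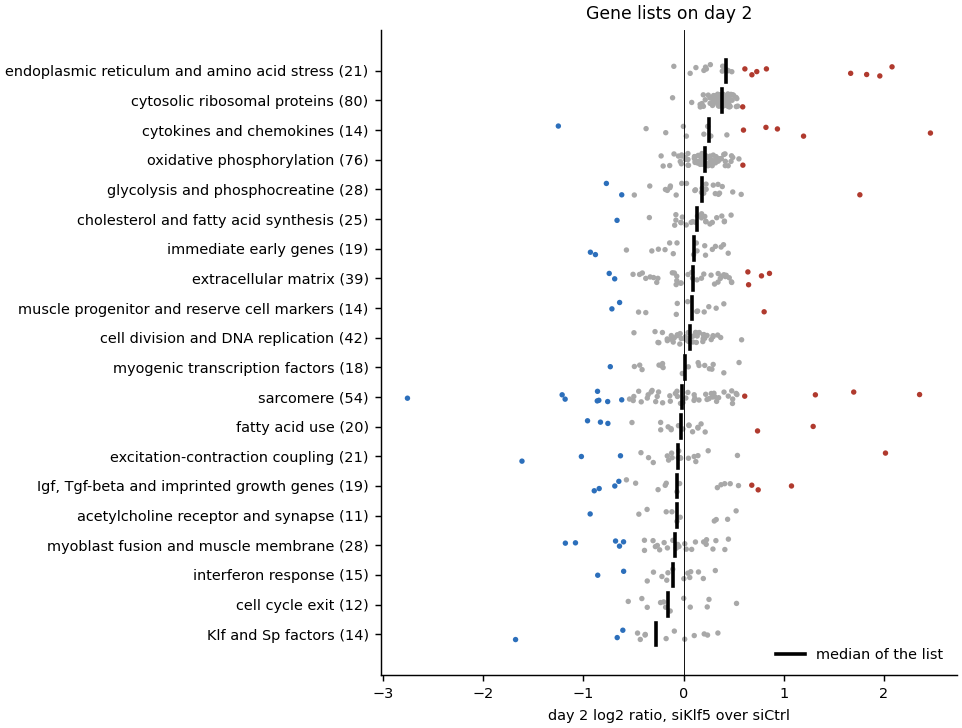
Day 2 log2 ratio of siKlf5 over siCtrl (x axis) of the members of the 20 gene lists with at least 10 members, 1 point per gene (blue lower, red higher by more than 1.5-fold) and a black bar at the list's median. The list medians lie between -0.28 for the Klf and Sp factors and 0.43 for the amino acid stress list, and the sarcomere and coupling lists hold genes on both sides.

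Of the 21 members of the endoplasmic reticulum and amino acid stress list 8 (38.1%) were higher and 0 lower, beside 3.42% and 7.5% of all members, 20 of the 21 ratios were above 0, and the median was 0.43, 0.34 after centring by level and 0.28 after centring by level and length. The median of the cytokine list, 0.26, became 0.31 and 0.39 in the same way. Beside Chac1, Trib3, Mthfd2 and Asns the higher members were the amino acid transporter Slc7a5 (261 and 463, ratio 0.83, interval 0.64 to 1.00), the serine and glycine enzymes Shmt2 (224 and 373, ratio 0.73) and Phgdh (226 and 363, ratio 0.68), and Sesn2 (29.6 and 45.3, ratio 0.61, interval -0.05 to 1.26). Atf4, the factor that induces these genes, was at 888 and 1241 (0.48, interval 0.31 to 0.64, not centred by level). The chaperone genes of the unfolded protein response were closer to 0, with Hspa5 at 1116 and 1459 (0.39, or 0.03 after centring) and Dnajb9 at 130 and 122 (-0.10). Before day 2 the list had medians of -0.06 (day 0) and -0.41 (day 1), and after it 0.15 (day 3).

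Metabolism otherwise differed in single genes. In the fatty acid list of 20 members, 3 (15%) were lower and 2 (10%) higher, beside 7.5% and 3.42% of all members. Muscle carnitine transferase Cpt1b (20.6 and 10.6, ratio -0.96, interval -2.17 to 0.09), the fatty acid translocase Cd36 (77.4 and 43.5, ratio -0.83) and the heart-type binding protein Fabp3 (199 and 118, ratio -0.75) were lower, and lipoprotein lipase Lpl (79.4 and 195, ratio 1.29, interval 1.01 to 1.57) and Pdk4 (36.8 and 61.5, ratio 0.74) were higher. Lpl was higher by more than 1.5-fold on days 1 and 3 too, at 1.31 and 1.16. Of 28 glycolysis and phosphocreatine genes 2 (7.14%) were lower and 1 (3.57%) higher, beside 7.5% and 3.42% of all members. The lactate exporter Slc16a3 (80.1 and 46.9, ratio -0.77) and creatine kinase Ckb (613 and 399, ratio -0.62) were lower and Ckmt2 was higher. The median of this list, 0.18, became -0.03 after centring. Of 25 genes of cholesterol and fatty acid synthesis 1 (4%) was lower, Dhcr7 (205 and 129, ratio -0.66), and 0 were higher, beside 7.5% and 3.42% of all members. The 80 ribosomal protein genes had a median of 0.39 with 79 ratios above 0, and the 76 genes of oxidative phosphorylation a median of 0.21, but both lists are of abundant transcripts and their medians were 0.07 and 0.07 after centring by level.

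None of the 42 genes of cell division and DNA replication was past 1.5-fold on day 2, with ratios from -0.49 for Mki67 to 0.58 for Prim1 and a median of 0.06. On days 1 and 3 the median of this list was 0.33 and 0.32. None of the 12 genes of cell cycle exit was past it either, with Rb1 at 244 and 167 (-0.55). Of 19 Igf, Tgf-beta and imprinted growth genes 4 (21.05%) were lower and 3 (15.79%) higher. Among all members 7.5% were lower and 3.42% higher. The insulin receptor Insr (54.2 and 29.2, ratio -0.89), the Igf2 receptor Igf2r (268 and 149, ratio -0.84) and Tgfb2 (54.7 and 34.9, ratio -0.65) were lower on day 2 and within 1.5-fold on day 3. The exons of Insr and Igf2r are 9332 and 8879 bases long, in the range of lengths that was lower as a whole on day 2, and centring by level and length took their ratios to -0.56 and -0.58. The activin antagonist follistatin (Fst) was at 213 and 132 (-0.69) and reached -2.08 on day 3. Igfbp3 (20.7 and 43.8, ratio 1.08) and Igfbp7 (496 and 796, ratio 0.68) were higher, as was Bmp4 on few reads (0.75, interval -0.51 to 2.00).

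Of 14 cytokines and chemokines 5 (35.7%) were higher and 1 was lower, beside 3.42% and 7.5% of all members, with a median of 0.26. The 1 was the alarmin Il33, at 132 in siCtrl and 55.4 in siKlf5 cells (-1.25, interval -1.76 to -0.79), which was lower by more than 1.5-fold on days 1 and 3 as well. Beside Fgf21, the stress hormone Gdf15 (68.6 and 158, ratio 1.20), Cxcl5 (42.8 and 82.0, ratio 0.94), Cx3cl1 (41.9 and 74.3, ratio 0.82) and Ccl2 (111 and 169, ratio 0.60, interval -0.03 to 1.21) were higher. Among 39 genes of the extracellular matrix the basement membrane genes Col4a1 (307 and 527, ratio 0.78), Nid2 (271 and 424, ratio 0.65) and Col4a2 (257 and 401, ratio 0.64) were higher together with Postn (20.5 and 37.3, ratio 0.86), and the long Vcan (142 and 85.0, ratio -0.74, or -0.43 after centring by level and length) and Hspg2 (524 and 326, ratio -0.69) were lower. The higher genes were 10.26% and the lower 5.13% of this list, beside 3.42% and 7.5% of all members.

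Of 14 Klf and Sp factors 3 (21.43%) were lower and 0 higher, beside 7.5% and 3.42% of all members. The 3 and the median of -0.28 include Klf5 itself. Klf7 was at 67.5 in siCtrl and 42.6 in siKlf5 cells (-0.66, interval -1.53 to 0.13) and Klf10 at 219 and 144 (-0.61, interval -0.90 to -0.33). Klf4 and Klf2, other members of the family, were at 439 and 557 (0.34) and at 267 and 315 (0.24). Of 19 immediate early genes Nr4a1 (91.8 and 48.2, ratio -0.93) and Fos (21.4 and 11.6, ratio -0.88, interval -2.27 to 0.31) were lower and 0 were higher. The lower genes were 10.53% of that list, beside 7.5% of all members.

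The changes were set against the course of differentiation. 1247 members were at least 2-fold higher on day 3 than on day 0 in siCtrl cells. Their median day 2 ratio was -0.17, or -0.11 after centring by level. Of them 293 (23.5%) were lower and 108 (8.66%) higher by more than 1.5-fold, beside 7.5% and 3.42% of all members. The 1172 members that were at least 2-fold lower on day 3 had a median of 0.01, with 107 (9.13%) lower and 104 (8.87%) higher. The other 9172 had a median of -0.03, with 469 (5.11%) lower and 184 (2.01%) higher. The course was taken from the day 0 and day 3 libraries. The filter for members used the mean of all 8 libraries, those of day 2 included. When the sets were taken from the siKlf5 libraries instead, the 1198 members that rose had a median of -0.10.

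The same genes were then followed on the other days, each of which has its own control library. On day 0, 6.52% of members were lower and 4.75% higher, on day 1, 7.12% and 12.1%, and on day 3, 7.64% and 6.19%. Of the 869 members that were lower on day 2, 184 (21.2%) were also lower on day 0, 229 (26.4%) on day 1 and 307 (35.3%) on day 3, and the 307 were 34.7% of the members lower on day 3. In the opposite direction 107 of the 869 were higher on day 0, 136 on day 1 and 80 on day 3. Of the 396 higher members 79 were also higher on day 0, 144 (36.4%) on day 1 and 146 (36.9%) on day 3, while 70 were lower on day 0, 72 on day 1 and 62 on day 3. The days differ in the stage of the cells and are not replicates. Among the 509 lower members with at least 120 reads, at least 200 exon bases and an interval that left out 0, 193 (37.9%) were lower and 11 higher on day 3. Of the corresponding 146 higher members 61 (41.8%) were higher and 6 lower on day 3. All 15 of the largest reductions were lower by more than 1.5-fold on day 3, 12 on day 1 and 7 on day 0. Of the 15 largest increases 14 were higher by more than 1.5-fold on day 3, 9 on day 1 and 8 on day 0. These counts did not require an interval that left out 0. On day 0 only Als2cl and Art3 of the reductions and Mybpc1, Rps6ka1 and Myh4 of the increases had one. On that day Jakmip1, Fam107a and Tmem252 were at 0 in siKlf5 cells, and Mybpc1, Tceal7 and Ckmt2 in siCtrl cells. On days 1 and 3 some intervals included 0 too.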

How the data were processed

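RNA was measured in 8 libraries of C2C12 cells, 1 per siRNA and day, and the siKlf5 and siCtrl libraries of day 2 were compared. The authors selected poly(A) RNA, sequenced paired ends on an Illumina instrument, aligned them to mm9 with STAR and used HOMER to count reads of both strands over RefSeq exons (tool versions not given in the sources used here). HOMER was set to keep no more than 3 reads at a position and to report 1 transcript for each gene. In the deposited FPKM values the matrix total is 10000000, which makes them larger than ordinary FPKM. Their 8 log2 columns and the 6 ChIP samples were not used here, and the read counts that the study normalized with DESeq2 were not analysed here. Reads were recovered from the steps of low values, of which 5606 to 7863 per library were checked and 100% were whole within 0.1. The recovered reads gave the depth, the intervals, the read minimums and the centring by reads per exon base. They were not put through a count test, since there is 1 library a side.

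The members, the 26 gene lists and the alternatives were chosen with earlier results of these data known. The genes named were Klf5, Myod1, Myog, Myh3, Mybph, Myl4, Myom2 and Pax7 from the text of the study, the 15 largest reductions and 15 largest increases among members with at least 200 exon bases and 120 reads in the richer day 2 library, and in each list the 2 lowest and 2 highest ratios on at least 60 reads. Other genes past 1.5-fold in a list, and the genes described beside them, were named after their values were seen. Some genes that these rules choose are not reported here. Promoter windows of 250 bases were read from mm9, in which 0 transcripts ended past a chromosome, 58.9% of the starts equalled a GENCODE start and 83.9% were within 50 bases of one. The calculations were tested on simulated data and ran in Python 3.11.15 with scipy 1.17.1, pandas 2.3.3 and numpy 2.4.6, and figures were drawn with matplotlib 3.10.9. The alternatives were other pseudocounts, filters, scalings, centrings and thresholds.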

Additional observations from a re-analysis of the deposited data

Results flagged for a closer look

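Some results of day 2 had the opposite direction on another day. The median log2 ratio of the 21 members of the endoplasmic reticulum and amino acid stress list was 0.43 on day 2 and -0.41 on day 1. Of the named genes past 1.5-fold on day 2 with an interval that left out 0, the ratios on day 2 and day 1 were 2.47 and -1.79 for Fgf21, 2.08 and -2.13 for Chac1, 1.96 and -1.96 for Trib3, 1.83 and -1.04 for Mthfd2, 1.67 and -1.43 for Asns and 1.20 and -1.04 for Gdf15. In siCtrl cells Asns was at 636, 178, 80.6 and 140.5 on days 0 to 3, and in siKlf5 cells at 621, 65.8, 256 and 223. Vcan was at -0.74 on day 2 and 0.63 on day 3. With 1 library per siRNA and day the difference between days was not tested. Groups of 1 library leave no sample to set against the others.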

How the results depend on the processing

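The counts of members lower and higher by more than 1.5-fold were 869 and 396, and they moved by over 1.5 times with the filter and the threshold. They were 1856 and 1101 with a mean of at least 1, 2978 and 2276 with no filter, 308 and 115 with a mean of at least 50, 279 and 139 past 2-fold, and 516 and 152 when the interval also had to leave out 0, while lower members outnumbered higher ones in each. Lower members made up 68.7% of these counts, 53.0% (616 and 547) when centred within 50 groups of mean level, 53.9% by reads per exon base and 54.1% by level and length. The median ratio of the 80 ribosomal protein genes, 0.39, became 0.068 when centred within 50 groups of mean level, 0.082 within 50 groups of reads per exon base and 0.13 within 10 groups by level and 10 by length, the last chosen after seeing the data. That of the 39 matrix genes, 0.09, became -0.0042 when centred by reads per exon base. No value past 1.5-fold changed sign among the 116 named genes under the other pseudocounts, scalings and centrings, and 58 of the 67 that were past 1.5-fold remained past it under every one. The other 9 were Ddx58, Hey1, Igf2r, Insr, Klf7, Megf10, Ndufa5, Rps18 and Vcan. No paired analysis was possible because day 2 has 1 library per siRNA and the labels carry no replicate numbers, and for the same reason no day 2 library could be left out. Blocking by day over the 4 days would estimate an effect shared by the days, not that of day 2, and was not run. The depth of the siKlf5 library limits the low values, where 1 clump of 6 reads is the whole of the Atp6v1c2 value.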

Other observations

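Interferon response and progenitor genes were not described above. Of 15 members of the interferon list 2 (13.33%) were lower and 0 higher on day 2, beside 7.5% and 3.42% of all members. The median of the list was -0.11. Ifit2 was at 53.2 in siCtrl and 29.4 in siKlf5 cells (-0.86, interval -1.44 to -0.32), and Ddx58, a sensor of viral RNA, at 33.3 and 21.9 (-0.60, interval -1.21 to -0.03). On day 3 Ifit2 was at 0.02 and Ddx58 at -0.51. Of 14 markers of muscle progenitors and reserve cells Megf10 (314 and 191, ratio -0.71, interval -0.88 to -0.57) and Hey1 (113 and 72.5, ratio -0.64, interval -1.14 to -0.18) were lower, and Sox8 (22.8 and 39.9, ratio 0.81, interval 0.12 to 1.48) was higher, with a median of 0.09. The lower were 14.29% and the higher 7.14% of these markers, beside 7.5% and 3.42% of all members. Megf10 was at 0.13 on day 3, and Sox8 at 1.21. Tagln, a smooth muscle marker, was at 231 and 350 (0.60, interval 0.30 to 0.89).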
